A study of Mus musculus with 6 samples.

Results

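The NOTCH genes described here are the receptors Notch1, Notch2, Notch3 and Notch4, the ligands Jag1, Jag2, Dll1 and Dll4, and the targets Hes1 and Hey1. They are taken by gene symbol, as a list of names that was drawn up with earlier results of these data known, and all 10 were found among the 23260 gene lines of the count files. Embryonic submandibular glands (eSMGs) were taken from ICR mouse embryos at embryonic day (E) 14 and kept in culture for 6 h, either untreated by AMD3100 (control) or in 50 µM AMD3100, which blocks the chemokine receptor CXCR4. Up to 10 glands were pooled in a tube, and 3 libraries per group were made from 3′ ends of mRNA, so that epithelium, mesenchyme, vessels, nerves and blood cells were measured together. Nothing in the labels says whether the tubes came from separate litters or cultures, and p-values measure the spread between these tubes. Total gene counts ran from 9051595 to 14393031 per library, of which the ribosomal RNA gene Rn45s took 16.2% to 32.5%, and expression is given as TMM-normalized CPM (counts scaled to a common library size). The limit that a count of 0 allows, 3 counts and for counting error only, equalled 0.173 to 0.368 CPM depending on the library.

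NOTCH receptors are activated by ligands on neighbouring cells, so the pathway works over the distance of a cell contact. Binding of a JAG or DLL ligand exposes the receptor to cleavage by ADAM proteases and then by γ-secretase. The released intracellular domain enters the nucleus, joins the DNA-binding protein RBPJ and a Mastermind coactivator, and raises transcription of HES and HEY repressors. In developing vessels, NOTCH1, NOTCH4, DLL4 and HEY1 are known from endothelial cells and NOTCH3 from the mural cells around them. JAG ligands and HES1 are found in many tissues, epithelia and mesenchymes among them.

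Of the 10 genes, 8 passed edgeR's filter on low counts, as did 13610 genes in all, whereas Dll1 and Dll4 did not. Jag1 was the only one of the 8 whose expression passed a fold change of 1.5 with an unadjusted p-value under 0.05 in edgeR's quasi-likelihood test of AMD3100-treated against control eSMGs. Its mean was lower in AMD3100, with a log2 fold change of -1.0. These thresholds were passed by 1.68% of all genes tested, 0.397% higher and 1.28% lower in AMD3100. After Benjamini-Hochberg adjustment over all genes, edgeR's p-value was 1.0 for each of the 8 genes, and 0 of the 13610 genes had an adjusted p-value under 0.05 (228 at an unadjusted p-value under 0.05, and 5 genes, none of them a NOTCH gene, with an adjusted p-value under 0.05 by DESeq2). Control and AMD3100-treated libraries overlapped for all 8 genes, where 7.44% of the genes tested had no overlap. Of the 8 genes, 1 had a higher and 7 a lower fold change in AMD3100, where 52.2% of all genes tested were higher and 47.8% lower, and their median log2 fold change was -0.09. This median turned to 0.17 without control replicate 2 and to 0.0088 without AMD3100 replicate 3. It stayed below 0 in all other fits tried. It was -0.23 with replicates 1 and 2 only, and -0.45 without control replicate 3, where 9 members passed the filter. The sign of the median thus depended on single libraries, and a common direction of the members was not tested. Jag1 was also the 1 member past both thresholds with the replicate block (4.39% of all genes, and 0.0220% after adjustment), with replicate 3 as a batch (4.14%), with replicates 1 and 2 only (4.39%) and with DESeq2 (2.62%), whereas 0 members passed the procedure of the study (2.34%).

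The 2 libraries of replicate 3 stood apart from the 4 others, which bears on most values below. The first principal component of log2 CPM over the genes tested placed control and AMD3100 replicate 3 at 84.8 and 80.8, and the others between -78.7 and -17.4. Both replicate 3 libraries were below all 4 others for 21.1% of the genes tested and above them for 23.1%. The log2 fold changes of the members are therefore also given with replicates 1 and 2 only, as are some results on other genes.

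Jag1 encodes a transmembrane ligand of NOTCH receptors and lies on chromosome 2 from 137081451 to 137116520 (GRCm38). The bases before its start are shown, as it is the member past the thresholds, with every CG, the dinucleotide that can be methylated, in capitals. The window is chr2:137116521-137116770 on GRCm38.p6 (RefSeq), minus strand, 250 bases, and holds 20 CG, against a median of 6 over the 32851 windows of the same length before annotated mouse starts.
Jag1: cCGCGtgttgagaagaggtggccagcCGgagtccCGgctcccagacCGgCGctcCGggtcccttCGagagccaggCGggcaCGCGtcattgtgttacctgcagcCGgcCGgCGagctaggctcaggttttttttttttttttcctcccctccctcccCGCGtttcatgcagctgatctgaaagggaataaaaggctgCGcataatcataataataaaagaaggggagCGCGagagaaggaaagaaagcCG
The letters TGGGAA, the core of the sequence bound by RBPJ, were searched on both strands and are not in this window, nor in those of any of the 8 members with an entry. They occur in 21.6% of all windows of this length. The targets Hes1 and Hey1 had no entry and were not searched.

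Jag1 was at 23.2, 20.1 and 11.97 CPM in control replicates 1, 2 and 3, from 265, 276 and 120 counts. In AMD3100-treated eSMGs it was at 8.70, 6.27 and 12.6 CPM, from 151, 68 and 103 counts. Control replicates 1 and 2 were thus the highest libraries and AMD3100 replicates 1 and 2 the lowest, while both replicate 3 libraries lay between them, with AMD3100 slightly above control. The control mean of Jag1 was 18.4 ± 5.80 CPM and the AMD3100 mean 9.20 ± 3.22 CPM (SD, n = 3 each). On the log2 scale AMD3100 differed from control by -1.0 (SE 0.44), and the 95% interval ran from -2.0 to -0.0090 (edgeR unadjusted p = 0.0484, adjusted p = 1.0). An exact two-sided permutation test of log2 CPM in 3 against 3 libraries gave p = 0.2 for Jag1, where the smallest it allows is 0.1. The ratio of AMD3100 to control was 0.375 in pair 1, 0.312 in pair 2 and 1.06 in pair 3. With replicates 1 and 2 only, the log2 fold change was -1.53 (edgeR unadjusted p = 0.0071, adjusted p = 0.767). The difference between pair 3 and the other pairs did not pass the threshold for Jag1 either (edgeR interaction, unadjusted p = 0.0777, adjusted p = 1.0), in a test chosen after seeing the data. Jag1 lost its unadjusted p-value under 0.05 without control replicate 1, control replicate 2, AMD3100 replicate 1 or AMD3100 replicate 2, where it ranged from 0.114 to 0.151.

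**Figure D1:**
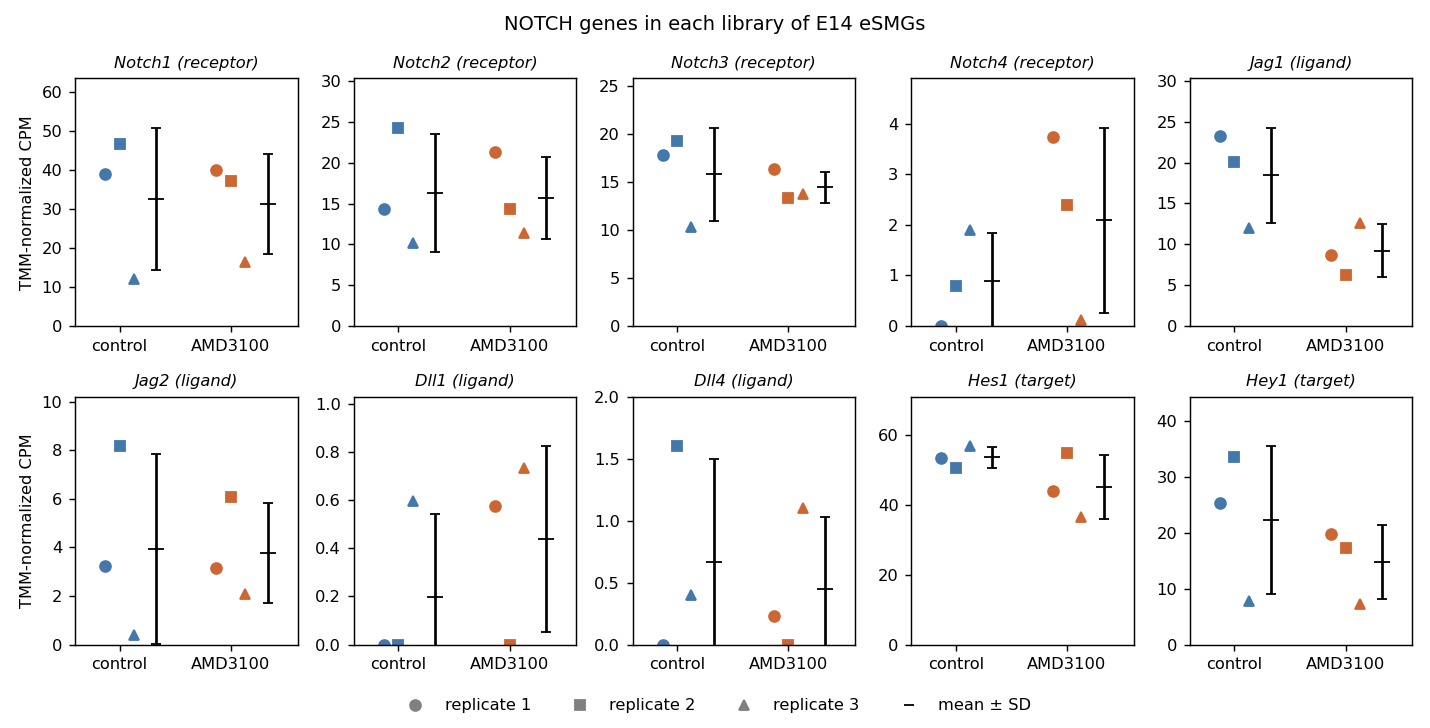
TMM-normalized CPM (y axis, from 0) of the 10 NOTCH genes in 3 control (blue) and 3 AMD3100-treated (orange) libraries, with the symbol giving the replicate and black bars the mean ± SD, cut at 0 where they reach below it. Jag1 in AMD3100 replicates 1 and 2 sits at 8.70 and 6.27 CPM, below all control libraries, and replicate 3 at 12.6 CPM, within the control range.

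Jag2, the other JAG ligand, on chromosome 12 from 112907803 to 112929812, was expressed at a lower and more variable level. It was at 3.24, 8.16 and 0.399 CPM in control and at 3.17, 6.08 and 2.09 CPM in AMD3100-treated eSMGs. In both groups replicate 2 was highest and replicate 3 lowest, so the order of the libraries was the same and the groups overlapped. The log2 fold change of Jag2 was -0.06 (SE 1.02, edgeR unadjusted p = 0.954), and its 95% interval of -2.37 to 2.25 is wide. With replicates 1 and 2 only it was -0.31, and its sign changed under 7 of 16 alternatives, for Jag2 to 0.50 with the replicate block, 0.44 with replicate 3 as a batch and 1.05 without control replicate 2.

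Dll1 and Dll4, the DLL ligands listed, were near the floor. Counts of Dll1, on chromosome 17 from 15367354 to 15376932, were 0, 0 and 6 in the control libraries and 10, 0 and 6 in the treated ones. Counts of Dll4, on chromosome 2 from 119325784 to 119335666, were 0, 22 and 4 in the control libraries and 4, 0 and 9 in the treated ones. For either gene, libraries at 0 and libraries above it occurred in both groups. A count of 0 allows up to 0.263 CPM in control replicate 1, 0.219 CPM in control replicate 2 and 0.277 CPM in AMD3100 replicate 2. Both genes were left out by the filter, and a difference between groups was not detectable at this depth. Jag1 made up 81.5 ± 12.3% (SD, n = 3) of the summed CPM of the 4 ligands in control and 65.2 ± 13.1% (SD, n = 3) in AMD3100-treated eSMGs. The difference was not tested, and the shares overlapped between the groups, from 67.3% to 89.6% in control and from 50.7% to 76.3% in AMD3100.

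The receptors did not pass the thresholds. Notch1, on chromosome 2 from 26457902 to 26503822, was at 39.0, 46.6 and 12.1 CPM in control and at 40.0, 37.2 and 16.5 CPM in AMD3100-treated eSMGs. Both groups held a pair of libraries near 40 CPM and a much lower replicate 3. Notch1 averaged 32.5 ± 18.1 CPM in control against 31.2 ± 12.9 CPM in AMD3100 (SD, n = 3 each). For Notch1 the log2 fold change was -0.06, with a 95% interval of -1.26 to 1.15 (edgeR unadjusted p = 0.915). Notch2, on chromosome 3 from 98013538 to 98150367, was at 14.36, 24.3 and 10.2 CPM in control and at 21.3, 14.38 and 11.4 CPM in AMD3100. Its libraries were mixed between the groups, higher in AMD3100 in pairs 1 and 3 and lower in pair 2. The log2 fold change of Notch2 was -0.05 (95% interval -1.05 to 0.95, edgeR unadjusted p = 0.911).

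Notch3, the receptor known from mural cells, lies on chromosome 17 from 32120820 to 32166896. It was at 17.8, 19.3 and 10.3 CPM in control and at 16.3, 13.3 and 13.8 CPM in AMD3100-treated eSMGs, so that the AMD3100 libraries lay inside the control range. Its log2 fold change was -0.13 (95% interval -0.99 to 0.74, edgeR unadjusted p = 0.745), the narrowest interval among the receptors. Notch4, on the same chromosome from 34564286 to 34588543, was counted 0, 11 and 19 times in control replicates 1 to 3, against 65, 26 and 1 times in those of AMD3100. The libraries of the groups interleave, with AMD3100 replicate 1 the highest and control replicate 1 at 0. The log2 fold change of Notch4 was 1.22 (SE 1.66, edgeR unadjusted p = 0.480), and with replicates 1 and 2 only it was 2.89 (edgeR unadjusted p = 0.222). With replicates 1 and 2 only, the log2 fold changes of Notch1, Notch2 and Notch3 were -0.15, -0.12 and -0.33, with edgeR unadjusted p-values of 0.584, 0.790 and 0.452. Without control replicate 2 their signs changed, with log2 fold changes of 0.29 for Notch1, 0.36 for Notch2 and 0.044 for Notch3. The intervals of all 4 receptors include a fold change of 1.5 in at least 1 direction, so changes of that size were not detectable at this spread between libraries.

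Mean shares of Notch1, Notch2 and Notch3 in the receptor transcripts differed between the groups by less than their SDs. The differences were not tested. Notch1 held 47.0 ± 10.5% of the summed CPM of the 4 receptors in control and 48.0 ± 8.04% in AMD3100-treated eSMGs (SD, n = 3 each). Notch2 and Notch3 held about equal parts of the rest, 25.5 ± 4.796% and 25.4 ± 4.33% in control and 24.95 ± 3.16% and 24.2 ± 7.54% in AMD3100 (SD, n = 3 each). In replicate 3 the share of Notch1 was lower in both groups, 35.1% in control and 39.4% in AMD3100, against 49.2% to 55.3% in the 4 other libraries. Genes of the opposite strand lie over the annotated 3′ ends of Notch1 and Notch3 (GENCODE vM1), and whether the counting used strand is not given in the sources used here. Of 11 reads simulated from the 3′ end of each of the 10 genes, 0 also matched another place of the genome.

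The targets had lower means in AMD3100 but did not pass the thresholds. Hes1, a repressor of the bHLH class and a direct NOTCH target in many tissues, lies on chromosome 16 from 30065357 to 30067796. It was at 53.3, 50.7 and 56.7 CPM in control and at 43.9, 54.8 and 36.6 CPM in AMD3100-treated eSMGs. Hes1 varied least of the members tested, its highest library being 1.55 times its lowest, and AMD3100 replicate 2 lay inside the control range. Hes1 averaged 53.6 ± 3.03 CPM in control against 45.1 ± 9.14 CPM in AMD3100 (SD, n = 3 each), with a log2 fold change of -0.25 (95% interval -0.88 to 0.39, edgeR unadjusted p = 0.398). With replicates 1 and 2 only it was -0.08, and with 1 replicate left out it ranged from -0.41 to -0.13. Hey1, a related repressor of vessels and other tissues, lies on chromosome 3 from 8663359 to 8667038. It was at 25.4, 33.7 and 7.78 CPM in control and at 19.8, 17.2 and 7.25 CPM in AMD3100. In each of the 3 pairs with the same number, AMD3100 had the lower value of Hey1, as in 14.6% of all genes tested, although AMD3100 replicates 1 and 2 were above control replicate 3. The log2 fold change of Hey1 was -0.59 (95% interval -1.90 to 0.73, edgeR unadjusted p = 0.336), with replicates 1 and 2 only it was -0.68 (edgeR unadjusted p = 0.0839), and it was closest to 0 without control replicate 2, at -0.16.

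**Figure D2:**
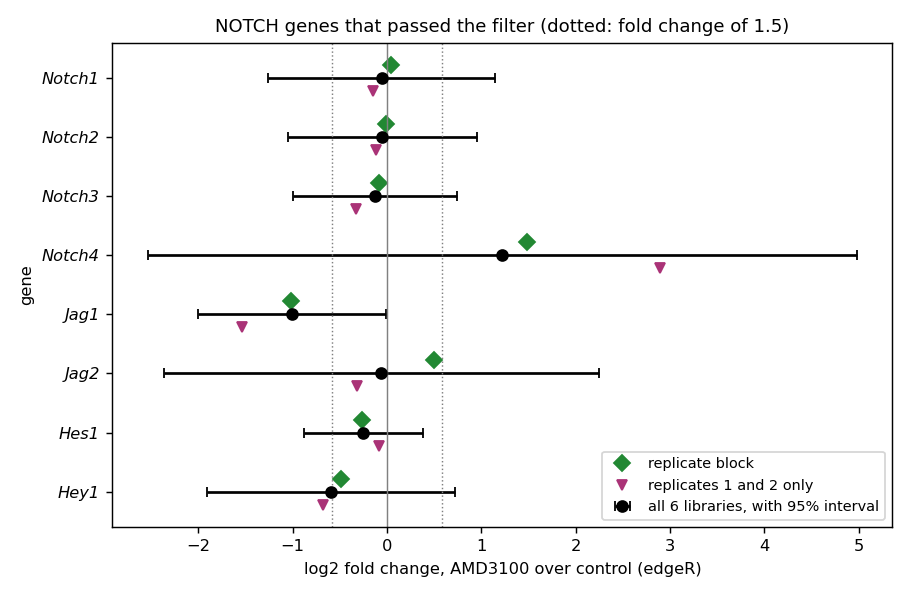
Log2 fold change of AMD3100 over control (x axis) for the 8 NOTCH genes that passed the filter, with the 95% interval from edgeR on all 6 libraries (black), the fit with a replicate block (green) and the fit on replicates 1 and 2 only (purple). Jag1 is the gene whose interval, -2.0 to -0.0090, does not reach 0, and dotted lines mark a fold change of 1.5.

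The order of the levels of the 10 genes was set by CPM averaged over the 6 libraries. CPM were not divided by transcript length here, since reads of these libraries come from the 3′ end of each transcript. Hes1 was highest at 49.3 ± 7.67 CPM, followed by Notch1 at 31.9 ± 14.1 CPM and Hey1 at 18.5 ± 10.2 CPM (SD, n = 6 each). Hes1 was above Notch1, and Notch1 above Hey1, in 6 of 6 libraries. Hey1, Notch2, Notch3 and Jag1, the latter at 13.8 ± 6.57 CPM (SD, n = 6), could not be ordered, as each was above the next in only 3 of the 6 libraries. Jag1 was above Jag2 in 6 of 6 libraries, and Jag2, Notch4, Dll4 and Dll1 followed with ranges that overlap.

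Differences between replicates exceeded those between groups for several members. Notch1, Notch2, Jag2 and Hey1, which makes 4 of the 8 genes tested, were lower in both replicate 3 libraries than in all 4 others, as were 21.1% of all genes tested. For Notch1 the replicate 3 libraries averaged 14.3 CPM, against 37.2 to 46.6 CPM in the others. For Hey1 they averaged 7.51 CPM, against 17.2 to 33.7 CPM. The correlation among these 4 genes over the same 6 libraries is not independent of this split and is given only as a description. The Pearson correlation of log2(CPM + 0.5) lay between 0.76 and 0.94 for the 10 pairs among the 4 genes and Notch3, whose replicate 3 libraries were not both below the others. The correlation of Jag1 with the 7 other members lay between -0.76 and 0.52, and that of Hes1 with them between -0.16 and 0.33.

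**Figure D3:**
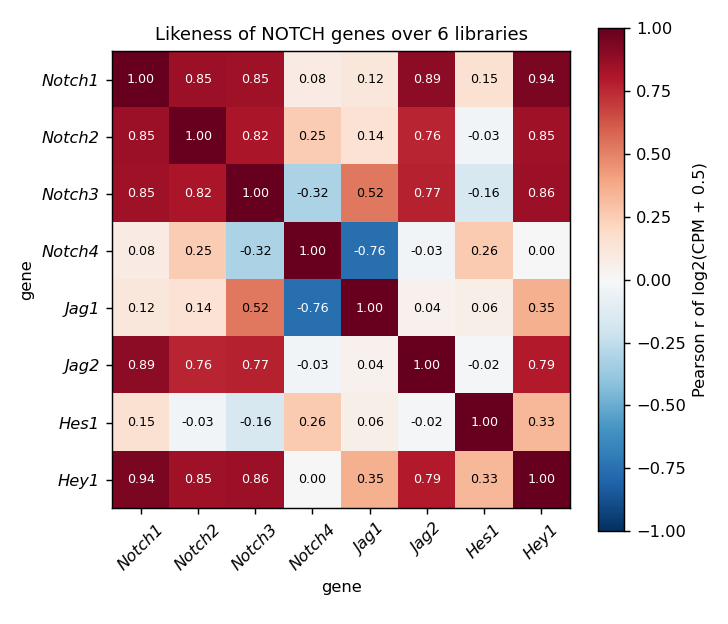
Pearson correlation of log2(CPM + 0.5) over the 6 libraries for each pair of the 8 NOTCH genes that passed the filter, from -1 (blue) to 1 (red). The 10 pairs among Notch1, Notch2, Notch3, Jag2 and Hey1 lie from 0.76 to 0.94, those with Jag1 from -0.76 to 0.52 and those with Hes1 from -0.16 to 0.33.

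The genes most like 3 members were taken from the 8245 other genes with a mean of at least 10 CPM, by the same correlation over 6 libraries. Ago2, which binds small RNAs, Map3k3, a kinase, and U2af2, a splicing factor, were most like Notch1, with correlations of 0.997, 0.996 and 0.995, and 446 genes had a correlation over 0.95 with Notch1. Fxyd2, a regulator of the sodium pump, Lrp10 and Ccdc112 were most like Jag1, with correlations of 0.992, 0.989 and 0.986, and 14 genes were over 0.95. Id4, an inhibitor of bHLH factors, Ccdc58 and Tmem237 were most like Hes1, with correlations of 0.98, 0.96 and 0.95, and 4 genes were over 0.95.

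Of 60 other genes of the pathway, 54 were tested, 28 with a higher and 26 with a lower fold change in AMD3100, and 0 passed a fold change of 1.5 with an unadjusted p-value under 0.05, where 1.68% of all genes did. Their median log2 fold change was 0.03, against 0.02 over all genes tested. It was -0.050 without AMD3100 replicate 3 (all genes -0.048) and 0.093 without control replicate 3 (all genes 0.036). Each of the 8 roles described here spanned both directions. Adam10, the protease of the first cleavage, was at 34.2 ± 11.8 CPM in control and 27.8 ± 8.29 CPM in AMD3100 (SD, n = 3 each), with a log2 fold change of -0.30 (edgeR unadjusted p = 0.450). Of the 9 genes for receptor cleavage, 3 had a higher and 6 a lower fold change in AMD3100, with a median log2 fold change of -0.05.

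In the nucleus, Rbpj was at 24.8 ± 3.44 CPM in control and 27.7 ± 5.93 CPM in AMD3100-treated eSMGs (SD, n = 3 each), with a log2 fold change of 0.16 (edgeR unadjusted p = 0.630). Maml1, a Mastermind coactivator, was at 6.83, 15.3 and 4.79 CPM in control and at 4.15, 7.10 and 2.82 CPM in AMD3100. It was lower in every pair, though the groups overlapped, with a log2 fold change of -0.93 (SE 0.63, edgeR unadjusted p = 0.176). Control replicate 2 was its highest library, and the log2 fold change of Maml1 was -0.31 without it, within a range of -1.35 to -0.31 with 1 replicate left out. Of the 9 genes for nuclear activation 8 had a log2 fold change above 0, where 52.2% of all genes tested did, and the sign of 6 of these 8 changed under at least 1 alternative. Among the 8 was Snw1, a cofactor of RBPJ and of splicing, at 259.7 ± 86.1 CPM in control and 299.5 ± 100.97 CPM in AMD3100 (SD, n = 3 each). Ncor1, a corepressor, was at 239 ± 89.9 and 269 ± 84.9 CPM (SD, n = 3 each), and of the 12 genes for nuclear repression 4 were higher and 8 lower. Snw1 and Ncor1 had the higher value in AMD3100 in each of the 3 pairs, as did 15.7% of all genes tested, and their log2 fold changes were 0.21 and 0.17 (edgeR unadjusted p = 0.581 and 0.676). Genes on the opposite strand lie over the 3′ ends of Maml1, Snw1 and Ncor1.

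Lfng, a glycosyltransferase that alters the response of receptors to ligands, had a log2 fold change of 0.0096 (edgeR unadjusted p = 0.983), with 21.8 ± 9.07 and 22.0 ± 7.65 CPM (SD, n = 3 each). Nrarp and Heyl, known as further targets of NOTCH, were at 5.65 ± 1.43 and 3.50 ± 2.06 CPM in control and at 4.31 ± 1.16 and 1.94 ± 0.653 CPM in AMD3100 (SD, n = 3 each). Their log2 fold changes of -0.39 and -0.84 had standard errors of 0.60 and 0.91. Hey2 was below 3 counts in 4 of the 6 libraries and was left out by the filter with Hes2, Hes3, Hes5, Hes7 and Mib1. Dlk1, a noncanonical ligand of the DLL family, was far more abundant than any other gene of the list, at 6547, 7243 and 12506 CPM in control and at 6875, 7707 and 9031 CPM in AMD3100, with replicate 3 the highest in both groups. Its log2 fold change was -0.16 (edgeR unadjusted p = 0.650).

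Dtx2 and Ctbp1, named after their values were seen, were the 2 genes of the list whose groups did not overlap, 1 higher and 1 lower in AMD3100, where 3.28% of all genes tested were higher and 4.17% lower without overlap. Dtx2, of the Deltex family that acts on NOTCH receptors, was at 8.49, 22.3 and 18.7 CPM in control and at 31.6, 26.2 and 25.2 CPM in AMD3100, a log2 fold change of 0.74 (edgeR unadjusted p = 0.103). Ctbp1, a corepressor, was at 173, 205 and 233 CPM in control and at 139, 147 and 161 CPM in AMD3100, a log2 fold change of -0.45 (edgeR unadjusted p = 0.128). Dtx2 was lowest in control replicate 1, and its log2 fold change was 0.42 without that library and 1.02 without control replicate 2 (edgeR unadjusted p = 0.270 and 0.0646). With the replicate block, which 4.39% of all genes passed, Dtx2 passed both thresholds, with a log2 fold change of 0.83 (edgeR unadjusted p = 0.0454, adjusted p = 0.732), but with replicate 3 as a batch it did not (log2 fold change 0.75, edgeR unadjusted p = 0.0580). Ctbp1 did not, with a fold change below 1.5 (log2 fold change -0.44, edgeR unadjusted p = 0.0075, adjusted p = 0.526). With replicates 1 and 2 only, the log2 fold change of Ctbp1 was -0.41 (edgeR unadjusted p = 0.0242, adjusted p = 0.811) and that of Dtx2 0.90 (edgeR unadjusted p = 0.0750, adjusted p = 0.887).

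**Figure D4:**
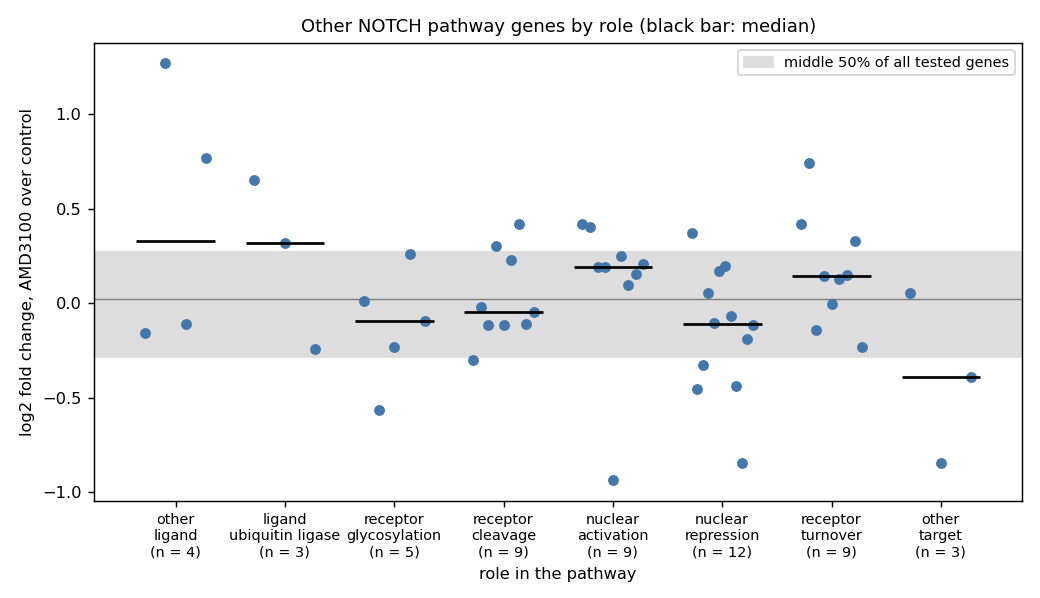
Log2 fold change of AMD3100 over control (y axis) of the 54 other pathway genes tested, grouped by role (x axis), 1 point per gene and a black bar for the median of each role. The grey band holds the middle 50% of all genes tested, and the medians of the roles run from -0.39 (other targets, n = 3) to 0.33 (other ligands, n = 4), with those of the 3 roles of under 5 genes tested outside the band.

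Cell type markers were summed in each library, since in pooled glands fewer cells of a type and less RNA per cell cannot be told apart. Epithelial markers (12 of 12 tested, Krt15 the most abundant) summed to 1995, 1939 and 1367 CPM in control and to 2358, 2005 and 3360 CPM in AMD3100, and mesenchymal markers (10 of 10, Col3a1 the most abundant) to 4600, 4535 and 2284 CPM and to 4570, 4519 and 1965 CPM. Both labelled parts of the gland were thus present in every library. The epithelial sum was higher in AMD3100 in every pair, without overlap between the groups. The mesenchymal sum was lower in every pair, slightly so in pairs 1 and 2, and neither difference was tested. In both replicate 3 libraries, 7 of the 12 epithelial markers, among them Krt5 and Krt8, were lower than in all 4 others. So were 5 of the 10 mesenchymal markers, among them Col3a1, as were Notch1, Notch2, Jag2 and Hey1. The same held for 21.1% of all genes tested. The mesenchymal marker Lum was higher in both replicate 3 libraries, and Krt15 was highest in AMD3100 replicate 3. Without Krt15 the epithelial sum was 953, 928 and 479 CPM in control and 992, 989 and 888 CPM in AMD3100. It was again higher in AMD3100 in every pair, though the groups overlapped. This sum holds Cdh1, at 337, 302 and 211 CPM in control and at 344, 394 and 507 CPM in AMD3100. Of the 12 epithelial markers, 7 had a higher and 5 a lower fold change in AMD3100, where 52.2% and 47.8% of all genes tested did. Their median log2 fold change was 0.12, with 0 past both thresholds. Mural markers (8 of 10, Acta2 the most abundant) summed to 127, 144 and 462 CPM in control and to 128, 129 and 519 CPM in AMD3100. Skeletal muscle markers (8 of 8, Myog the most abundant) summed to 330, 330 and 1474 CPM and to 220, 169 and 2011 CPM. Macrophage markers (8 of 8, C1qa the most abundant) summed to 126, 95.3 and 245 CPM and to 110, 130 and 223 CPM. For muscle, 7 of the 8 genes were higher in both replicate 3 libraries than in all others, as were 23.1% of all genes tested. With replicates 1 and 2 only, 4 of the 8 muscle genes passed both thresholds, where 4.39% of all genes did. Of these muscle genes, 0 had an adjusted p-value under 0.05. The median log2 fold change of the 8 was then -0.81. Over all libraries 0 of them passed, and the median was 0.32. The mural sum in replicate 3 was carried by Acta2 and Des, which muscle also expresses, and without them it was 69.6, 55.5 and 82.7 CPM in control and 62.5, 59.5 and 49.0 CPM in AMD3100. The mural genes Tagln and Cspg4 were lower in both replicate 3 libraries than in all others, whereas Rgs5, a pericyte gene, had 13 and 5 counts there and 0 in all others. Without C1qa the macrophage sum was 110, 81.4 and 122 CPM in control and 87.1, 111 and 128 CPM in AMD3100. Among macrophage genes C1qa, Cd68 and Cx3cr1 were higher there and Ptprc and Adgre1 lower. The part of these cells in the values of the NOTCH genes was not tested.

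Endothelial markers (9 of 12 tested, Egfl7 the most abundant, Sox18 at 0 in every library) summed to 90.6, 85.5 and 175 CPM in control and to 63.5, 124 and 119 CPM in AMD3100-treated eSMGs. Egfl7 carried the sums of replicate 3, and without it they were 51.4, 31.0 and 50.7 CPM in control and 29.0, 58.7 and 25.4 CPM in AMD3100. With and without Egfl7, the endothelial sum was lower in AMD3100 in pairs 1 and 3 and higher in pair 2, where Hey1 was lower in all 3 pairs and Jag1 in pairs 1 and 2. Egfl7 was the 1 endothelial gene higher in both replicate 3 libraries than in all others. The part of endothelial cells in these values was not tested. The median log2 fold change of the 9 endothelial markers was -0.42, with 0 past both thresholds. It was -0.86 without control replicate 2 and -0.11 with replicates 1 and 2 only. Nerve markers (9 of 9, Tubb3 the most abundant) summed to 793, 632 and 814 CPM and to 684, 608 and 1024 CPM. One of them, Fabp7, a marker of glia and their precursors, passed both thresholds, at 25.4 ± 19.0 CPM in control and 7.22 ± 3.002 CPM in AMD3100 (SD, n = 3 each), with a log2 fold change of -1.82 (edgeR unadjusted p = 0.0126, adjusted p = 1.0). Control replicate 3 was its highest library, at 47.2 CPM, and without it Fabp7 no longer passed (log2 fold change -1.0, edgeR unadjusted p = 0.0948), nor by the procedure of the study. Fabp7 did pass with replicates 1 and 2 only, as 4.39% of all genes did (log2 fold change -1.41, edgeR unadjusted p = 0.0280, adjusted p = 0.827). Red cell markers (8 of 8, Hba-a1 the most abundant) summed to 7234, 19386 and 11341 CPM and to 7003, 11001 and 11903 CPM. All 8 had a lower fold change in AMD3100 (median log2 fold change -0.40), as had 47.8% of all genes tested. That median was -0.043 without control replicate 2 and -0.94 without AMD3100 replicate 3. Red cell, nerve and skeletal muscle sums were lower in AMD3100 in pairs 1 and 2 and higher in pair 3, as Jag1 was. The mesenchymal sum was lower in every pair, as Hey1 was, and the other lists followed neither gene. The part of these cells in either gene was not tested. The lists other than that for nerve had 0 genes past both thresholds. With the replicate block, which 4.39% of all genes passed, Krt15, Twist1, Abcc9, Myod1 and Myog passed both as well. They belong to the epithelial, mesenchymal, mural and muscle lists.

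**Figure D5:**
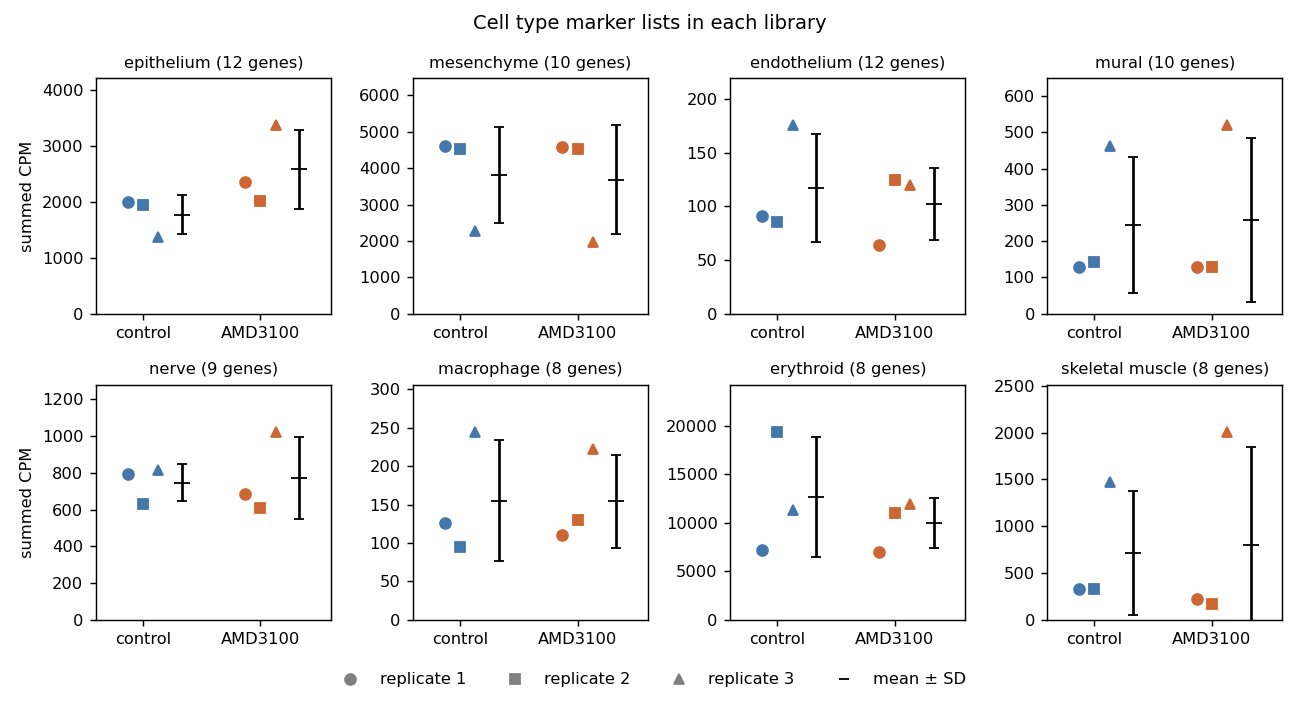
Summed CPM (y axes, from 0) of 8 lists of cell type markers in 3 control (blue) and 3 AMD3100-treated (orange) libraries, with the symbol giving the replicate and black bars the mean ± SD, cut at 0 where they reach below it. Skeletal muscle markers are at 1474 and 2011 CPM in the replicate 3 libraries, against 169 to 330 CPM in the others, and mesenchymal markers at 2284 and 1965 CPM, against 4519 to 4600 CPM. The mural sums of 462 and 519 CPM in replicate 3 are carried by Acta2 and Des.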

How the data were processed

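Of the series, 6 libraries were compared, 3 control and 3 AMD3100-treated, with groups and replicate numbers taken from the sample titles. QuantSeq 3′ mRNA libraries were sequenced as single reads. The authors deposited raw read counts per gene symbol, without normalization. The submitters' processing notes name Bowtie2, edgeR and mm10, without their roles. The annotation and the strand setting of the counting are not given in the sources used here.

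Of 23282 lines, 22 that repeated a symbol with the same counts were left out. edgeR 4.0.16 in R 4.3.3 was used with TMM, filterByExpr, glmQLFit, glmQLFTest and Benjamini-Hochberg adjustment over 13610 genes, with condition as the only term. A gene was called past both thresholds at a fold change over 1.5 and an unadjusted p-value under 0.05. Exact permutation tests used log2(CPM + 0.5). Replicate numbers shared by both groups were checked for pairing: deviations from the group means of same-numbered libraries had correlations of 0.185, 0.171 and 0.584, all over 0.1, and so the numbers were taken as pairs in the blocked fit. However, replicates 1 and 2 correlated as well across numbers (0.198 and 0.146).

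Positions and promoter windows are those of RefSeq on GRCm38.p6, the mm10 assembly (22059 of 23282 symbols matched, and all 10 members). No promoter entry was found for Hes1 and Hey1. Overlaps and uniqueness of 3′ ends were checked on NCBIM37 with GENCODE vM1 and minimap2 2.31-r1302, with reads of 50 bases every 25 bases of the last 300. The fits were tested on simulated data.

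Named genes were all members, and from the pathway list Rbpj, Adam10, Maml1, Lfng, Nrarp, Heyl, Hey2, 1 gene that is not reported here, any gene past both thresholds and the 3 highest by CPM, and for likeness the 3 genes with the highest correlation. Members and lists were chosen with earlier results of these data known, and the counts of marker genes by replicate 3, the sums without Krt15, C1qa, Egfl7 or Acta2 and Des, and the interaction with replicate 3 after seeing the data. Alternatives were DESeq2 1.42.0, upper quartile and quantile normalization (limma 3.58.1), other filters, robust estimation, a version of the test in the study's methods, the replicate block, replicate 3 as a batch, replicates 1 and 2 only, Rn45s left out and each replicate left out.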

Additional observations from a re-analysis of the deposited data

How the results depend on the processing

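Jag1 was lower in AMD3100 under all 17 alternatives, with log2 fold changes between -1.53 and -0.78, and its adjusted p-value, in the 16 that give one, stayed at or above 0.722. It missed the unadjusted threshold in 8 of them, so that the number of NOTCH genes past both thresholds was 0 without a filter, with a minimum of 10 counts in each library, with robust estimation and the procedure of the study, and 0 to 1 with 1 replicate left out.
Across all genes, where 228 passed both thresholds (54 higher, 174 lower), 479 did with DESeq2 (168 and 311), 598 with the replicate block (203 and 395), 613 with replicates 1 and 2 only (267 and 346), 564 with replicate 3 as a batch (189 and 375) and 429 by the procedure of the study (172 and 257). Limma-voom called 92 higher, and no filter 93 higher. With 1 replicate left out, 163 to 547 passed, 34 to 316 higher and 115 to 350 lower, the highest counts being 547 without control replicate 3 and 451 without AMD3100 replicate 3. An adjusted p-value under 0.05 was reached by 5 genes with DESeq2, 3 with the replicate block and 7 with replicate 3 as a batch. In the pathway list 1 gene passed with the block. The block changed no other call of a member or named pathway gene. In the marker lists, 1 gene passed, against 6 with the block, 5 with replicate 3 as a batch, 9 with replicates 1 and 2 only, 0 by the procedure of the study and 1 to 9 with 1 replicate left out. Without control replicate 3 the gene was not Fabp7 but a macrophage gene. The causes were not tested.
Genes near 0 changed sign. Notch1 was at 0.063 with limma-voom, 0.041 with the block and 0.038 with the batch, and Notch2 at 0.023 with limma-voom. Jag2 was at 1.08, 0.50 and 0.44 in these fits and at 0.049 by the procedure of the study. Dlk1 was at 0.074 with replicates 1 and 2 only, and kept its sign at -0.44 with limma-voom and -0.58 by the procedure of the study. With 1 replicate left out, Notch1 ranged from -0.45 to 0.29, Notch2 from -0.34 to 0.36, Notch3 from -0.35 to 0.044, Jag2 from -0.59 to 1.05, Dlk1 from -0.33 to 0.20, Lfng from -0.25 to 0.35, Rbpj from -0.018 to 0.27, Snw1 from -0.12 to 0.52 and Ncor1 from -0.11 to 0.40. Without a change of sign, Notch4 ranged from 0.48 to 2.34, and Adam10 from -0.55 to -0.052, Heyl from -1.18 to -0.31 and Hey1 from -0.99 to -0.16. Nrarp ranged from -0.65 to -0.16, also without a change of sign. Dll1 and Dll4, left out by the main filter, were tested with DESeq2, without a filter and by the procedure of the study. Neither passed both thresholds there. Without control replicate 1 or 3, or AMD3100 replicate 1 or 2, 9 members were tested. These included 1 of the DLL genes, which did not pass both thresholds.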
